A study of Mus musculus with 96 samples.

Results

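The dual-specificity MAP kinase phosphatases are 10 genes here, Dusp1, Dusp2, Dusp4, Dusp5, Dusp6, Dusp7, Dusp8, Dusp10, Dusp14 and Dusp16, chosen by name from the family and not by their values. Earlier results of these data were known when the members were chosen. All 10 were measured, each by 1 probe set, among 19505 genes with a symbol on the Clariom S Mouse array. They were followed in brain tissue of mice taken 2 h after a filament had been placed to occlude the middle cerebral artery for a time (MCAO) or after sham surgery. Each mouse gave an array of the ipsilateral (IP) hemisphere, on the side of the filament, and an array of the contralateral (CL) hemisphere. Of 96 arrays from 48 mice, 68 arrays from 34 mice were used, 23 mice with MCAO and 11 sham mice.

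The male group held C57Bl/6j males aged 8 to 12 weeks, with 7 MCAO and 3 sham mice used. The diabetic group held BKS-Leprdb/db/JOrlRj males aged 8 to 12 weeks, which carry a defective leptin receptor gene in every cell, with 8 MCAO and 4 sham mice. The old group held C57Bl/6j males aged 18 months, with 8 MCAO and 4 sham mice. No non-diabetic mice of the BKS strain were among the groups, so strain and diabetes cannot be told apart. The artery was occluded for 90 min with an intraluminal filament and reperfused for 30 min, and animals were perfused with saline before the brain was removed. The tissue was the hemisphere within a coronal slice at bregma, so infarcted and spared tissue were measured together. Male MCAO mouse 3 and male sham mouse 1 were left out because both of their arrays stood apart, with median correlations of 0.42 to 0.59 with the other male arrays, against 0.96 to 0.98 for every array used within its group. The 24 arrays labelled female were not used here, since their hemisphere labels are in doubt.

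MAP kinases carry signals from receptors, calcium and stress to the nucleus, and they are active only while a threonine and a tyrosine of the activation loop are both phosphorylated. Dual-specificity MAP kinase phosphatases remove both phosphates and switch the kinases off. Several of their genes are themselves transcribed within minutes of kinase activation, so that their transcripts are widely read as a trace of recent ERK, p38 or JNK signalling, and in brain several rise after seizures and strong neuronal activity. Members differ in place and in target. Dusp6 and Dusp7 are cytoplasmic and selective for ERK, Dusp5 is nuclear and selective for ERK, Dusp1, Dusp2 and Dusp4 are nuclear and act on several MAP kinases, Dusp8, Dusp10 and Dusp16 act mainly on JNK and p38, and Dusp14 is a small enzyme without the kinase-binding domain of the others.

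The stretches before the start sites of Dusp1, Dusp5, Dusp6 and Dusp8 are shown because the first 3 genes had the highest differences between the hemispheres after MCAO and Dusp8 the lowest. Each runs over the 250 bases before a RefSeq start site (GRCm38.p6), at chr17:26508473-26508722 (minus strand) for Dusp1, chr19:53528895-53529144 (plus strand) for Dusp5, chr10:99262981-99263230 (plus strand) for Dusp6 and chr7:142095285-142095534 (minus strand) for Dusp8. The start site used for Dusp8 lies inside the annotated gene, which reaches to 142095907. Those of the other 3 lie at the outer end of the gene. Capitals mark the cAMP response element (CRE) TGACGTCA in Dusp1 and Dusp8 and the CArG box, the site of serum response factor, in Dusp5.
Dusp1: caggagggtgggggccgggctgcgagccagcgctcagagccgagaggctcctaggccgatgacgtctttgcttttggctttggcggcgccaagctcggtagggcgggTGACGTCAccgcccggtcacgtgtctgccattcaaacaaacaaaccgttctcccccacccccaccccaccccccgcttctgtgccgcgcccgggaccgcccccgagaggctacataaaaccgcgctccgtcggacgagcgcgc
Dusp5: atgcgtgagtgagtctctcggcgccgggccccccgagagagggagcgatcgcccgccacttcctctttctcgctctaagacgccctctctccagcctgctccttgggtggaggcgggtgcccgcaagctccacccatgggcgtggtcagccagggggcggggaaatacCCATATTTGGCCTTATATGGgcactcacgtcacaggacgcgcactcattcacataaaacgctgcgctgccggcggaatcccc
Dusp6: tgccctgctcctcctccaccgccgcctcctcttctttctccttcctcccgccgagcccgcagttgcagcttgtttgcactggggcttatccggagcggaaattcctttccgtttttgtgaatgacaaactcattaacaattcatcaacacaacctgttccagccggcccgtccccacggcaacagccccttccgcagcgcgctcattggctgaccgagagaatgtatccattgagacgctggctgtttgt
Dusp8: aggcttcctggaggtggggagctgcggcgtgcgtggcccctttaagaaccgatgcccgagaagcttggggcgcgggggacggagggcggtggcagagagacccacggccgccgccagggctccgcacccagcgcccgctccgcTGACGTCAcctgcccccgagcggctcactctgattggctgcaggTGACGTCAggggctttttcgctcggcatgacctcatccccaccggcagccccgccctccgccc
The search covered both strands of the 300 bases from 250 before to 50 after the start site and also looked for the AP-1 site TGACTCA, the EGR site GCGGGGGCG and the FoxO site GTAAACA, and for the CRE core TGACG, which the CRE contains on each strand. Since the CRE and the CArG box read alike on both strands each match was counted once. Counted from the start site, Dusp1 held a CRE whose first base is at −143, and Dusp8 held 2, at −107 and −63. Dusp5 held 2 adjoining CArG boxes, at −82 and −72, and Dusp2 an EGR site at −98. Outside a CRE, the core TGACG lay at −191 in Dusp1, −70 in Dusp16, −55 in Dusp5 and, after the start, at 5 in Dusp2. No match lay in the windows of Dusp6, Dusp7, Dusp10 and Dusp14, and the table used holds no Dusp4 entry. The windows of Dusp7, Dusp8, Dusp14 and Dusp16 lay at start sites inside the annotated gene, unlike those of the other members. Of 19143 promoters of the same length, 2.31% held the CRE, 24.4% its core, 1.46% the CArG box, 4.04% the EGR site, 4.74% the AP-1 site and 2.95% the FoxO site. Thus Dusp1, whose transcript rose, and Dusp8, whose transcript was level between the hemispheres, both held the CRE.

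Pooled over the 3 groups, 7 of the 10 phosphatase genes rose in the IP relative to the CL hemisphere of MCAO mice, and none was lower. They were Dusp6, Dusp1, Dusp5, Dusp14, Dusp4, Dusp10 and Dusp16, in the order of their log2 differences, which fell from 1.09 to 0.37. Dusp7, Dusp2 and Dusp8 did not pass. A gene was called at a Benjamini-Hochberg adjusted p under 0.05 in limma over all 19505 genes, where 3.49% of the genes were called, 1.64% of them as higher in IP and 1.85% as lower. The median log2 difference was 0.42 over the 10 members, against 0.00064 over all genes tested. The 7 were called again when any of the 34 mice was left out. In pooled sham mice no member was called, as no gene was in limma (846 had an unadjusted p under 0.05), and the members' median was −0.0086. In bulk tissue, more RNA of a gene per cell and more cells that make it cannot be told apart.

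**Figure D1:**
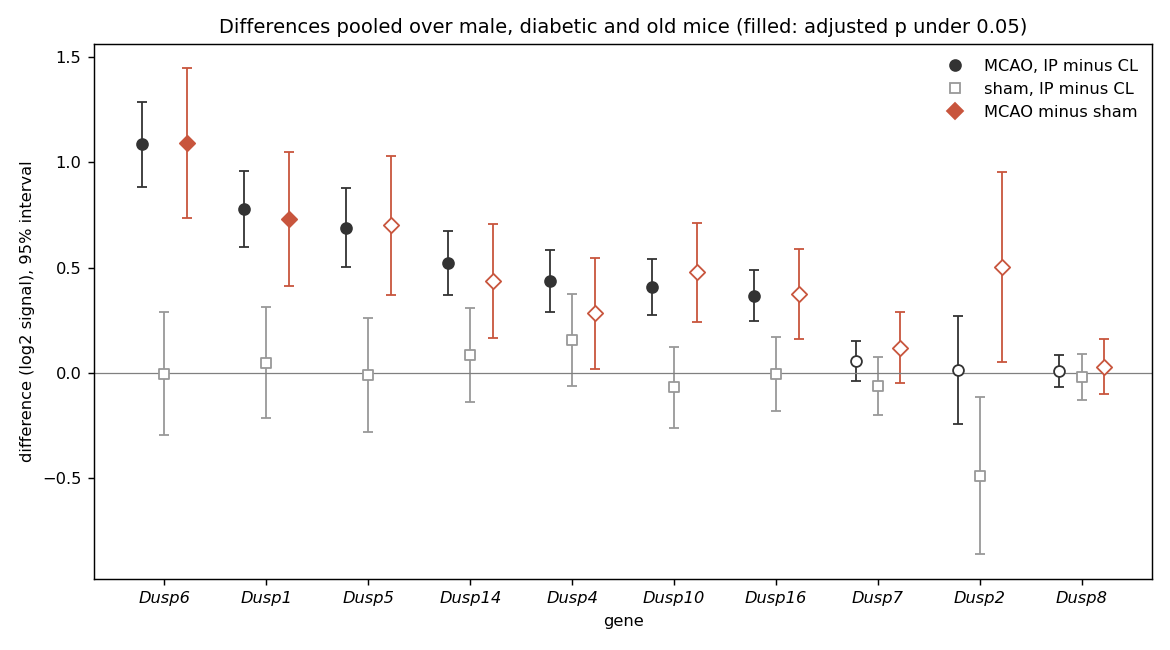
Log2 differences pooled over the 3 groups (vertical axis) for each gene (horizontal axis), with 95% intervals from limma: IP minus CL in 23 MCAO mice (circles), in 11 sham mice (squares), and MCAO minus sham (diamonds). Filled symbols passed the adjusted p; for IP minus CL after MCAO these are 7 genes, from Dusp6 at 1.09 to Dusp16 at 0.37, and for MCAO minus sham they are Dusp6 at 1.09 and Dusp1 at 0.73.

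Dusp6, the cytoplasmic ERK phosphatase that ERK itself induces, had the highest difference of the family. Its IP minus CL difference on the log2 scale ran from 0.27 over a median of 1.08 to 1.75 in male, from 0.18 over 1.20 to 1.80 in diabetic and from −0.02 over 1.21 to 1.53 in old MCAO mice. In sham mice it was −0.13, −0.07 and −0.23 (male), −0.15, −0.05, 0.29 and −0.11 (diabetic) and 0.19, 0.55, −0.41 and 0.22 (old). It was thus higher in IP in 22 of 23 MCAO mice, a count that 0.103% of all genes reached, and 18 of the 23 lay above the highest sham mouse. In males the MCAO and sham mice did not overlap, as in 1.09% of all genes. The pooled log2 difference was 1.09 (SE 0.0991, adjusted p = 1.25e-08), or 2.12-fold. The excess over the sham mice was the same size, 1.09 (SE 0.175, adjusted p = 0.00161), and was called with any mouse left out, in a test where 0.169% of all genes passed (0.159% as higher).

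Dusp5, the nuclear phosphatase of ERK, followed with smaller differences on a probe set of moderate signal. Its IP minus CL difference ran from −0.11 over a median of 0.82 to 1.74 in male, from 0.26 over 0.80 to 1.32 in diabetic and from −0.67 over 0.67 to 1.24 in old MCAO mice. The sham values were 0.08, 0.28 and −0.13 (male), 0.35, −0.22, −0.12 and −0.07 (diabetic) and −0.20, 0.30, −0.26 and −0.22 (old). MCAO mice were higher in IP in 21 of 23, a count reached by 0.354% of genes, and 18 lay above every sham mouse. Its pooled difference after MCAO was 0.69 (SE 0.0917, adjusted p = 8.68e-06). The difference from sham was 0.70 (SE 0.162) and did not pass (adjusted p = 0.0676). Dusp7, the other cytoplasmic ERK phosphatase among the members, had a pooled log2 difference of 0.06 with a 95% interval from −0.04 to 0.15 (adjusted p = 0.581). Its mice ran from −0.29 to 0.46 after MCAO and from −0.39 to 0.20 after sham surgery. Dusp6 and Dusp7, alike in place and target, thus had intervals that did not meet, although the difference between the genes was not tested.

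Dusp1, an immediate early gene whose nuclear product acts on p38, JNK and ERK, was the other member with a call against sham. Its IP minus CL difference ran from 0.16 over a median of 0.86 to 1.44 in male, from −0.19 over 1.01 to 1.27 in diabetic and from −0.66 over 0.75 to 1.09 in old MCAO mice. Sham mice had 0.12, 0.24 and 0.11 (male), 0.09, 0.01, 0.08 and −0.06 (diabetic) and −0.11, −0.06, 0.02 and −0.03 (old). Sham mice varied little, with SDs of 0.0687, 0.0699 and 0.0564 in male, diabetic and old mice, against 0.473, 0.480 and 0.587 in the MCAO mice. Of the MCAO mice 20 were higher in IP, a count reached by 0.697% of genes, and 19 lay above every sham mouse. The pooled difference was 0.78 (SE 0.0887, adjusted p = 5.97e-07), or 1.71-fold. The excess over sham was 0.73 (SE 0.157, adjusted p = 0.0383). That call was lost in 26 of the 34 fits with a mouse left out, where the adjusted p ran from 0.00179 to 0.0907 and the difference from 0.70 to 0.79.

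Of the other nuclear members Dusp4 passed after MCAO and Dusp2 did not. Dusp4, a close relative of Dusp1, was higher in IP in 20 of 23 MCAO mice, from −0.49 over a median of 0.53 to 1.06. Its sham mice ran from −0.38 over 0.16 to 0.56, so 9 of 23 MCAO mice lay above them all. The pooled difference after MCAO passed, at 0.44 (SE 0.0733, adjusted p = 0.000352), and the difference from sham, 0.28 (SE 0.130, adjusted p = 0.504), did not. Dusp2, known best as an inducible phosphatase of activated leukocytes, was dim, at percentiles 27.5 to 30.2 of the mean signals of all genes in the 3 groups. It was higher in IP in 12 of 23 MCAO mice, with a pooled difference of 0.01 and a 95% interval from −0.24 to 0.27. In sham mice Dusp2 was at −0.49 (SE 0.183), which had an unadjusted p of 0.0118 in limma and an adjusted p of 0.9998. The lowest sham values were −1.83 in a male, −1.32 in an old and −1.19 in a diabetic mouse, whereas 3 of 11 sham mice had a value above 0.

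Among the phosphatases of JNK and p38, Dusp10 and Dusp16 rose and Dusp8 did not pass. Dusp10 was higher in IP in 19 of 23 MCAO mice, from −0.14 over a median of 0.41 to 1.05, a count reached by 1.28% of genes. Its sham mice ran from −0.54 over 0.01 to 0.66. The pooled difference was 0.41 (SE 0.0655, adjusted p = 0.000205). The excess over sham, 0.48 (SE 0.116, adjusted p = 0.0919), did not pass. By group this excess was 0.47 in male, 0.89 in diabetic and 0.08 in old mice, where all 4 sham mice were higher in IP. Dusp16, which shuttles between nucleus and cytoplasm, was higher in IP in 21 of 23 MCAO mice, from −0.09 over a median of 0.31 to 1.10, against −0.44 over −0.02 to 0.28 in sham mice. In diabetic mice its MCAO and sham values did not overlap, as in 0.523% of all genes, whereas in old mice the differences of every member overlapped, where 0.21% of all genes did not. The pooled difference of Dusp16 was 0.37 (SE 0.0596, adjusted p = 0.000226), and 15 of the 23 mice lay above every sham mouse. Its excess over sham, 0.37 (SE 0.105, adjusted p = 0.170), did not pass. Dusp8, a phosphatase abundant in brain, was higher in IP in 11 and lower in 12 MCAO mice. Its pooled difference was 0.01 with a 95% interval from −0.07 to 0.08, the narrowest of the family.

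Dusp14, the small phosphatase without a kinase-binding domain, was higher in IP in 20 of 23 MCAO mice. Its differences ran from 0.04 over a median of 0.47 to 1.49 in male, from −0.02 over 0.57 to 1.22 in diabetic and from −0.39 over 0.36 to 0.94 in old MCAO mice. The 11 sham mice ran from −0.09 over 0.11 to 0.24, and 17 MCAO mice lay above them. The pooled difference was 0.52 (SE 0.0751, adjusted p = 3.2e-05), and the excess over sham was 0.44 (SE 0.133, adjusted p = 0.226). Thus 2 of the 10 genes, Dusp6 and Dusp1, passed in the test of MCAO against sham.

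**Figure D2:**
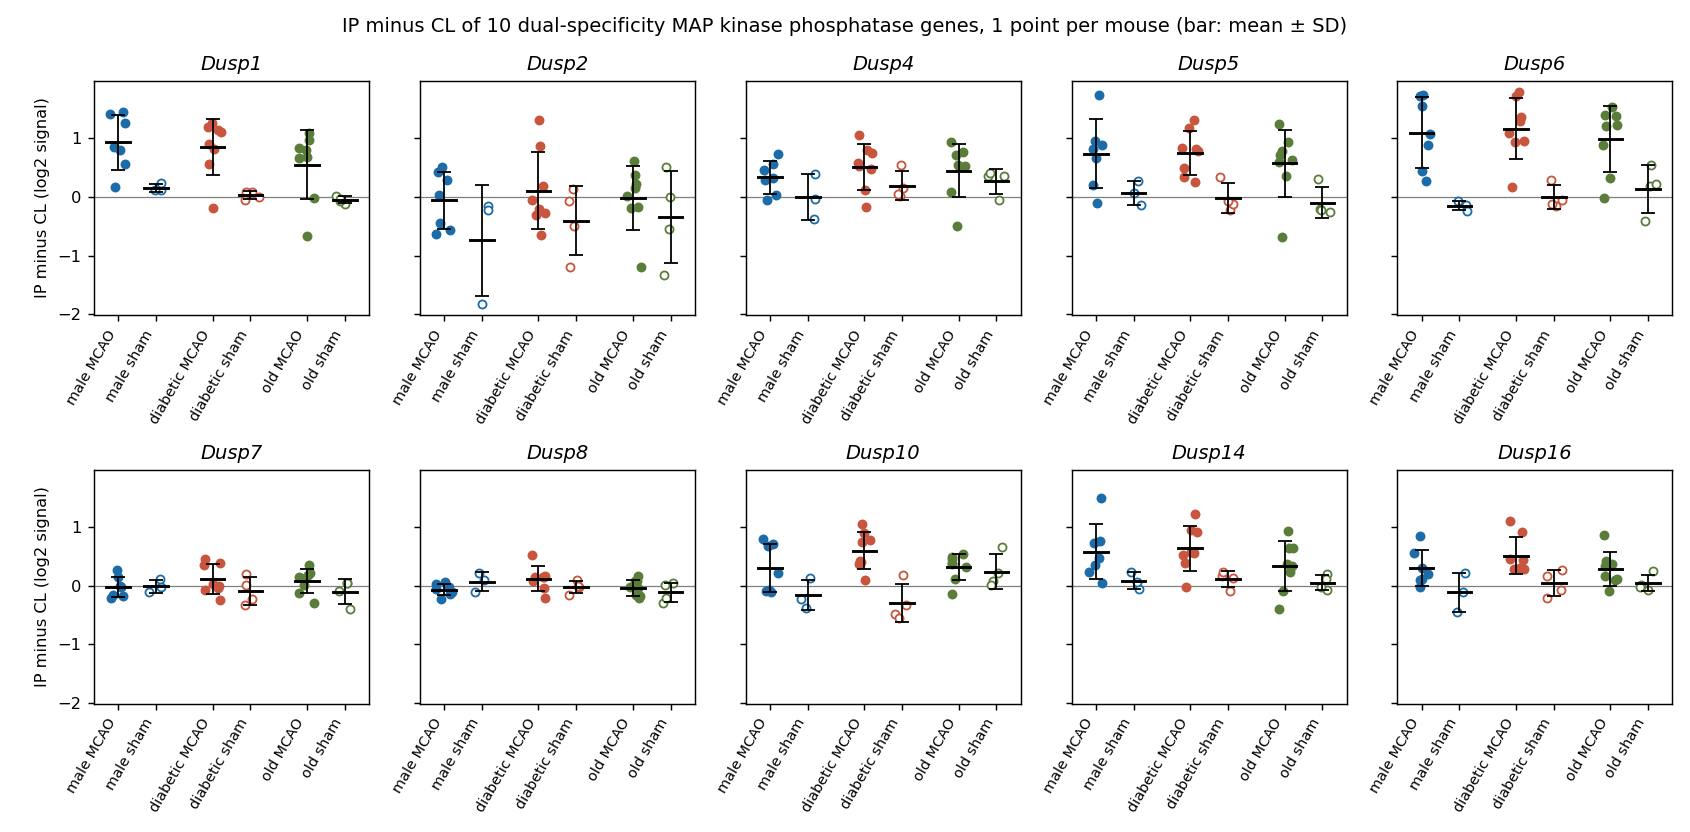
IP minus CL on the log2 scale (vertical axis) for each of the 10 genes, with 1 point per mouse for the male, diabetic and old groups (filled: MCAO, open: sham) and the mean with SD as bars. Dusp6 lies highest, with medians of 1.08, 1.20 and 1.21 after MCAO, while Dusp8 lies around 0 in every group and Dusp2 is widely spread.

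Within each single group Dusp6 had the highest difference of the family, but the number of members that passed varied. In males Dusp6, at 1.10 (SE 0.168, adjusted p = 0.017), and Dusp1, at 0.93 (SE 0.139, adjusted p = 0.0138), were called, where 0.159% of all genes were (0.149% as higher). Without MCAO mouse 4, 7 or 8 neither was called, and without mouse 1 Dusp6 was not. With a male mouse left out, the genes called among all ran from 18 to 32. In diabetic mice 7 members were called, where 2.29% of all genes were (1.04% as higher), and these were again Dusp1, Dusp4, Dusp5, Dusp6, Dusp10, Dusp14 and Dusp16. Dusp6 was at 1.17 (SE 0.146, adjusted p = 0.0046) and Dusp10 at 0.60 (SE 0.112, adjusted p = 0.0209) there. Without diabetic MCAO mouse 2 the members called were 3, Dusp1, Dusp5 and Dusp6, which were called in all 12 fits with a diabetic mouse left out. The call of Dusp4 was lost in 10 of the 12, of Dusp16 in 4, of Dusp10 in 2 and of Dusp14 in 1, and the genes called among all ran from 103 to 671. In old mice no member passed, nor did any gene in limma (1386 had an unadjusted p under 0.05), with Dusp6 at 0.99 (SE 0.166, adjusted p = 0.156) and Dusp1 at 0.55 (SE 0.159, adjusted p = 0.421). Without old MCAO mouse 8 the members called were 3, Dusp1, Dusp4 and Dusp6, and without mouse 6 they were 2, Dusp5 and Dusp6. With an old mouse left out, the genes called among all ran from 0 to 31.

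The test of the difference between the groups found no member whose IP minus CL difference after MCAO differed. It compared the means of the MCAO mice and did not take off the sham mice of each group. Whether the excess over sham differed between groups was not tested. Between diabetic and male mice 0.62% of all genes were called, between diabetic and old mice 0.0461%, and between old and male mice none in limma (720 had an unadjusted p under 0.05). With a mouse left out, the genes called ran from 26 to 325 between diabetic and male mice, against 121, and from 4 to 62 between diabetic and old mice, against 9, and no member was among them. For Dusp6 the mean responses lay in the order diabetic, male, old, and neighbours differed by less than their spread. The medians lay in another order, at 1.21 in old, 1.20 in diabetic and 1.08 in male mice. Its response was 0.07 higher in diabetic than in male mice, with a 95% interval from −0.43 to 0.57, and its difference between old and male mice was −0.11, from −0.61 to 0.39. Dusp1 was at −0.38 in old relative to male mice, from −0.83 to 0.06 (adjusted p = 0.9999). Dusp10 was 0.29 higher in diabetic than in male mice, from −0.04 to 0.62 (adjusted p = 0.408). These intervals are wide, and differences of this size were not resolved. Males were run in an earlier set of experiments than the others, so for the males set and group cannot be told apart.

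Signals within a hemisphere showed where the levels differed between MCAO and sham mice. In the IP arrays 6 members were higher after MCAO, where 1.16% of all genes were called and 0.856% were higher. They were Dusp6 at 1.33 (SE 0.113, adjusted p = 2.55e-10), Dusp1 at 1.19 (SE 0.111, adjusted p = 2.51e-09), Dusp5 at 0.72, Dusp14 at 0.62, Dusp10 at 0.42 and Dusp16 at 0.37. Dusp4 was at 0.44 (adjusted p = 0.0544). With a mouse left out, the call of Dusp10 was lost in 11 of 34 fits (adjusted p up to 0.100) and of Dusp16 in 12 (up to 0.0869), and the other 4 were kept. Dusp1, Dusp6 and Dusp14 had an IP signal in every MCAO mouse above that of every sham mouse of its group in all 3 groups, which 1.48% of genes did in males, 0.974% in diabetic and 0.523% in old mice, and in old mice Dusp5 did so too.

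The IP signal of Dusp6 in males ran from 8.97 over a median of 9.10 to 9.32 after MCAO, against 7.19, 7.25 and 7.50 after sham surgery. In the CL arrays of the same mice it ran from 7.24 over 8.03 to 8.81, against 7.32, 7.33 and 7.73. The male MCAO mice were thus close together in IP and widely spread in CL, with SDs of 0.130 and 0.614. In old MCAO mice the SDs of Dusp6 were 0.243 in IP and 0.656 in CL, where mouse 6 had the highest CL signal of the group, 10.69, against an IP signal of 10.67. In diabetic MCAO mice the SDs were 0.367 in IP and 0.345 in CL. In old MCAO mouse 8, where Dusp1 was at −0.66, its CL signal of 11.55 was the highest of the group and its IP signal of 10.90 still exceeded the 4 sham mice, which ran from 10.45 to 10.76.

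In the CL arrays no member differed between MCAO and sham mice in limma, nor did any gene (1000 had an unadjusted p under 0.05). Dusp1 was at 0.46 (SE 0.151), with an unadjusted p of 0.00408 and an adjusted p of 0.789, and lay at percentile 99.8 of the log2 differences of all genes. In males its CL signal ran from 9.07 over 9.44 to 10.33 after MCAO and was 8.60, 8.63 and 8.69 after sham surgery. These did not overlap, as in 0.805% of all genes. In diabetic and old mice the CL signals of every member overlapped between MCAO and sham, where 0.0872% and 0.154% of all genes did not. For Dusp1 they ran from 10.33 to 11.70 against 10.10 to 10.87 and from 10.38 to 11.55 against 10.43 to 10.87. Dusp6 was at 0.26 in the CL arrays, with a 95% interval from −0.09 to 0.60. Choroid plexus markers had lower signals after MCAO in both hemispheres, with a median of −0.93 over 5 markers in IP and −1.23 in CL arrays, but none passed, and their part in the results was not tested. Signals were not set against each other across groups, since the groups were normalized apart.

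**Figure D3:**
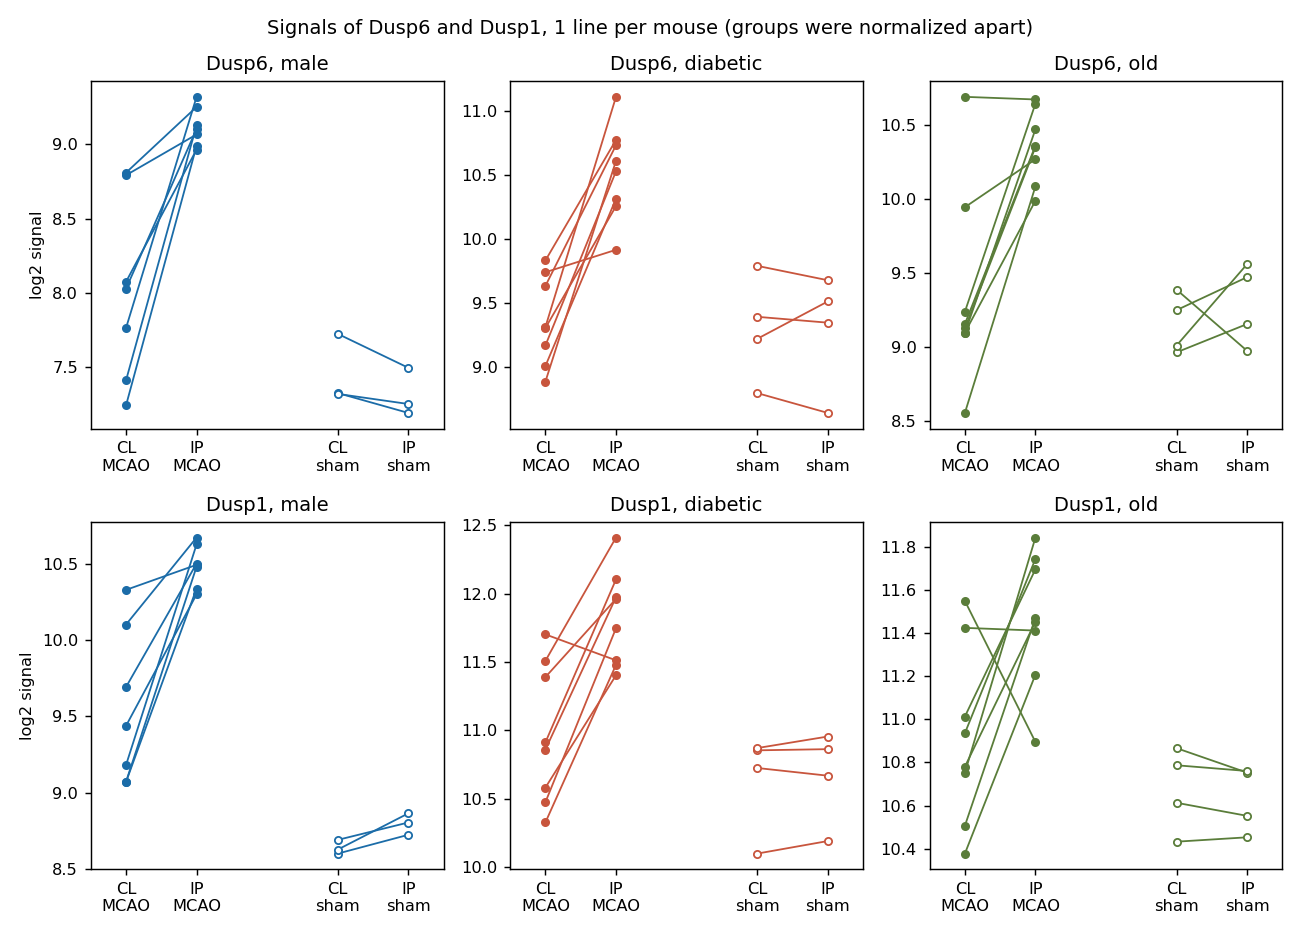
Log2 signals (vertical axis) of Dusp6 and Dusp1 in the CL and IP arrays, with 1 line per mouse, for MCAO (filled) and sham mice (open) of the 3 groups. Male MCAO mice lie close together in IP for Dusp6, from 8.97 to 9.32, and are spread in CL, from 7.24 to 8.81; the line of old mouse 8 falls for Dusp1, from 11.55 to 10.90.

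In Dusp1, Dusp5 and Dusp6 the same few MCAO mice had small differences, and the other members that rose shared this only in part. Diabetic mouse 5 had the lowest diabetic value in Dusp1, Dusp5, Dusp6 and Dusp14, at −0.19, 0.26, 0.18 and −0.02. It was also lowest in Dusp16, at 0.2849, just under diabetic mouse 2 at 0.2852. Male mouse 6 had the lowest male value in Dusp1, Dusp5 and Dusp6, at 0.16, −0.11 and 0.27. Old mice 6 and 8 held the lowest old values of 5 members, −0.67 in Dusp5 and −0.02 in Dusp6 for mouse 6, and −0.66 in Dusp1, −0.49 in Dusp4 and −0.39 in Dusp14 for mouse 8. Other mice were lowest in Dusp10, with −0.11 in male mouse 1, 0.10 in diabetic mouse 4 and −0.14 in old mouse 4. Among males Dusp16 was lowest in mouse 2 (−0.03), and among old mice in mouse 4 (−0.09). Dusp4 was lowest in male mouse 5 (−0.06) and diabetic mouse 1 (−0.17), and Dusp14 in male mouse 2 (0.04). Old mouse 6 stood high in Dusp4 (0.77) and old mouse 8 in Dusp16 (0.42). The AP-1 gene Fos was low in diabetic mouse 5, male mouse 6 and old mice 6 and 8, at 0.18, 0.43, 0.33 and −0.20 in that order, against 1.58 to 3.64 in the other 19.

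Over the 23 MCAO mice, with each group's mean taken off, Dusp1 and Dusp6 had a Pearson r of 0.862, Dusp1 and Dusp14 of 0.794 and Dusp5 and Dusp6 of 0.717. The points share arrays and normalization, and these values are descriptions. Leaving the 10 members aside, the genes most like Dusp1 among those measured were Nr4a1, an immediate early nuclear receptor (r = 0.921), Fos (0.873) and Rgs2, a regulator of G protein signalling (0.861). Those most like Dusp6 were Rgs2 (0.897), Nr4a1 (0.896) and Fosb, a partner in AP-1 (0.838). For Dusp5 they were Tnn (0.831), the synaptic immediate early gene Arc (0.786) and Nr4a1 (0.769). Dusp4 was most like Adgrg2 (0.812), the heat shock gene Hspa1a (0.775) and Gas2l2 (0.754), and Dusp14 most like the ephrin receptor gene Epha2 (0.808), 1700113H08Rik (0.785) and Glra2 (0.767). For Dusp10 the nearest were Cep41 (0.762), Abhd2 (0.752) and Prr14 (0.742), and for Dusp16 Chst14 (0.732), Calr3 (0.681) and Rnf125 (0.667), none of which was called between the hemispheres. So the nearest genes of Dusp1 and Dusp6 were all called as higher in IP, while those of Dusp10 and Dusp16 were not. The nearest genes were picked as the highest r among all genes measured. How high such a picked r runs by chance was not tested.

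Few genes of the kinase cascade passed. Of 14 MAP kinase genes listed 12 were measured, of which none was called as higher and 1 as lower in IP after MCAO, Mapk11, which encodes p38 beta, at −0.24 (SE 0.0610, adjusted p = 0.0244). None of 6 MAP2K and none of 20 MAP3K genes measured was called. Their medians were −0.04 for the MAP kinases, −0.06 for the MAP2K and 0.02 for the MAP3K genes. None of 16 other dual-specificity phosphatases measured, Dusp9 among them, was called (median −0.01), nor any of 7 other phosphatases that act on MAP kinases (median 0.03). Of 17 genes that respond to ERK, 11 were called as higher and none as lower, with a median of 0.34. The leading ones were Fos at 2.08 (SE 0.177, adjusted p = 9.0e-09), Fosb at 1.87, Egr4 at 1.36 and Egr2 at 1.31, the latter pair zinc finger immediate early genes. Among the measured genes of these lists, calls as higher in IP fell on ERK-responsive genes. The lists were chosen with earlier results of these data known, so these counts are descriptions.

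**Figure D4:**
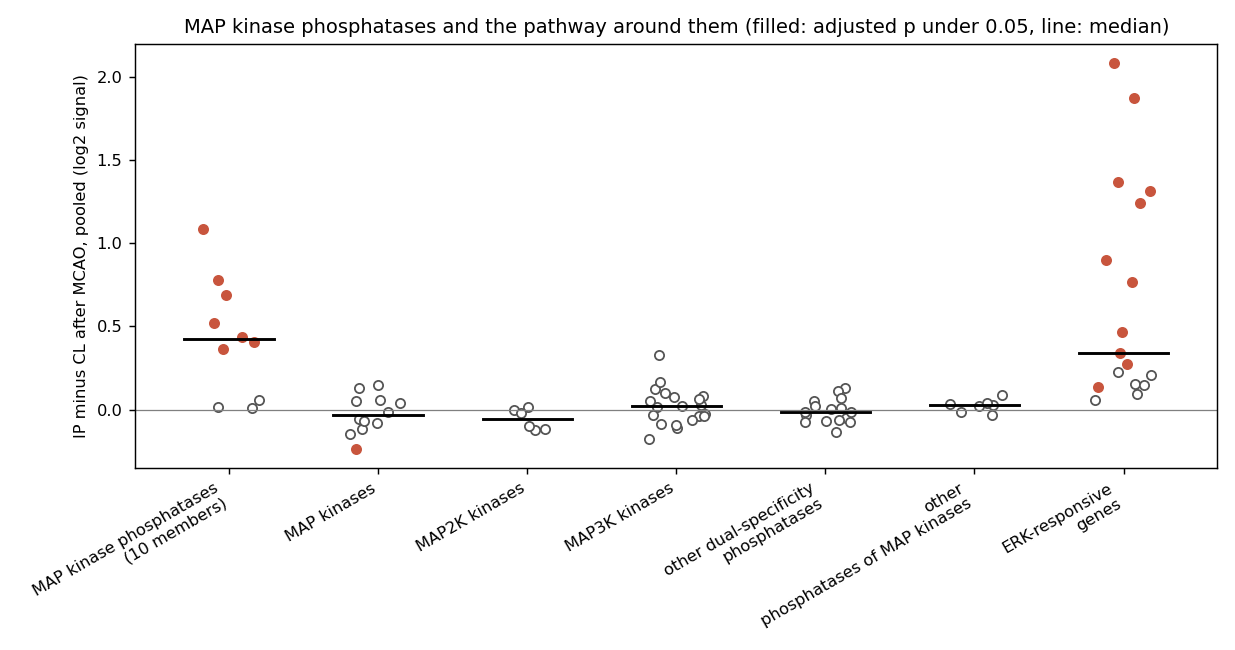
Log2 difference between IP and CL after MCAO, pooled over 23 mice (vertical axis), for the 10 phosphatase genes and for 6 lists of other genes of the pathway, with 1 point per gene (filled: passed the adjusted p) and the median as a line. The phosphatases, with 7 called, and the ERK-responsive genes, with 11 of 17 called, lie above 0, whereas the kinases and the other phosphatases lie around it.

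The tissue was checked on cell type markers. The 6 neuron markers lay at a median percentile of 98.2, 98.2 and 98.3 of the mean signals in male, diabetic and old mice. After MCAO, 2 of 7 neutrophil markers were higher in IP, S100a8 at 0.76 (adjusted p = 0.0123) and S100a9 at 0.50 (adjusted p = 0.0456). In diabetic mice, the group with 7 members called, 3 of 7 neutrophil markers were higher, S100a8 at 1.51, S100a9 at 1.41 and Retnlg at 1.12. There 2 of 6 neuron markers were lower, Tubb3 at −0.34 and Rbfox3 at −0.33, and the endothelial marker Flt1 was higher at 0.44. Between diabetic and male mice 2 neuron markers differed, lower in diabetic mice. The mean IP minus CL difference of the neutrophil list ran from 0.05 to 1.02 (median 0.56) in diabetic MCAO mice, against 0.02 to 0.24 in male and −0.59 to 0.55 in old MCAO mice. Its sham range was −0.28 to 0.77 in diabetic, −0.06 to 0.42 in male and −0.09 to 0.65 in old mice. Neutrophil markers were dim, at median percentiles of 21.7 to 24.9 of the mean signals. The neuron marker Tubb3 was lower at −0.13 (adjusted p = 0.00967), with the list from −0.37 to −0.000792 in diabetic, −0.04 to 0.09 in male and −0.12 to 0.15 in old MCAO mice. Flt1, of 6 endothelial markers measured, was higher at 0.26 (adjusted p = 0.00119). Tbr1, of 5 markers of cortical neurons measured, was higher at 0.17 (adjusted p = 0.0165). The endothelial list had a median IP minus CL difference of −0.009 in male, 0.16 in diabetic and 0.09 in old MCAO mice. The cortical neuron list had medians of 0.008, −0.07 and 0.01 in the same order. No marker of astrocytes, oligodendrocytes, microglia, striatal neurons or choroid plexus was called, nor was Alas2, the only red blood cell marker measured. Their part in the results was not tested.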

How the data were processed

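RNA of each hemisphere was hybridised to a Clariom S Mouse array. The authors deposited log2 signals, which they had summarised by RMA in Affymetrix Expression Console, with the groups normalized apart; genome build and version are not given in the sources used here. Of 29129 probe sets, 19572 carried 1 gene symbol, and a gene with several was represented by the probe set of highest mean signal, giving 19505 genes. In the columns of the diabetic and old mice, values of 8800 probe sets lay 3 places late, those of Dusp1, Dusp5, Dusp6 and Dusp14 among them. They were moved back, which raised the correlation with the male means from 0.169 to 0.975 in diabetic and from 0.170 to 0.977 in old mice.

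IP and CL came from the same animal, so mouse was a block in each group's fit, and pooled fits used the IP minus CL differences with a mean for each group and surgery. With each hemisphere's mean taken off, the median correlation between the arrays of a mouse was 0.141, 0.0955 and 0.122 in male, diabetic and old mice. The fits had 8, 10, 10 and 28 residual degrees of freedom (male, diabetic, old, pooled). Tests were two-sided moderated tests of limma 3.58.1 in R 4.3.3 with Benjamini-Hochberg adjustment over all genes, called at 0.05, and the procedure was tested on simulated data. Depth has no counterpart on arrays, and the number of mice limits the precision. Mice were numbered by the replicate numbers of the labels and were the replicates.

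Alternatives were a threshold of 0.25 and a standard deviation filter, as in the methods, a filter on mean signal and trended robust variances. Others were the mean over probe sets, MCAO arrays alone, a further quantile normalization, inclusion of the 2 left-out male mice, no mouse block, and each mouse left out. All members were named, with the 3 genes of highest Pearson r to each called member and at most 4 called genes of each pathway list. The members and lists were chosen with earlier results of these data known. Promoters are from RefSeq, GRCm38.p6, and 9 of the 10 members matched. Plots and tables were made with Python 3.11.15.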

Additional observations from a re-analysis of the deposited data

Results flagged for a closer look

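In 4 of the 50 sets of 4 to 10 mice, 1 mouse stood apart from the rest by Dixon's criterion, and chance gives about 1 in 20, or 2.5 sets. Old MCAO mouse 3 had a Dusp2 difference of −1.19, where the other 7 ran from −0.18 to 0.62. Old MCAO mouse 6 had a Dusp5 difference of −0.67, where the others ran from 0.36 to 1.24. Among old sham mice, mouse 4 had a Dusp4 difference of −0.0421 beside others from 0.35 to 0.41. Old sham mouse 2 had a Dusp5 difference of 0.30 beside others from −0.26 to −0.20.

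In male MCAO mouse 3, which entered no main comparison because its arrays stood apart, 5 members lay above the highest male sham mouse. The share of all genes that did so in this mouse was not counted, so this count is only a description. Its IP and CL arrays had median correlations of 0.59 and 0.45 with the male arrays used. Its IP minus CL difference was 2.26 in Dusp6, above the highest mouse used (1.80), and 0.83 in Dusp8, above the highest mouse used (0.53). It was 0.36 in Dusp1, 0.61 in Dusp4 and 0.60 in Dusp5, each below the highest mouse used. The other 5 members lay below the highest male sham mouse, with −1.11 in Dusp16 and −0.76 in Dusp7, both lower than in any MCAO mouse used, −0.32 in Dusp10, −0.38 in Dusp2 and 0.17 in Dusp14.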

How the results depend on the processing

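No member's difference changed direction among called values under any alternative. Of 786 log2 differences under other settings, 745 kept their side of the threshold, 17 lost a call and 24 gained one. Most of the members' results were not called in the main fits and had no call to lose, and a threshold of 0.25 can only add calls. The mean over probe sets left the members' differences as they were, since each had 1 probe set. The 745 is therefore no measure of robustness. The pooled count of 7 members called after MCAO held with any mouse left out (7 to 7) and without the mouse block (pairing), where males had 2, diabetic mice 5 and old mice 0 members called. At an adjusted p under 0.25 the members called were 4 in males, 1 in old mice and 6 for MCAO minus sham. The standard deviation filter, which left fewer members to test, gave 3 in diabetic mice, 1 in old mice, 3 pooled and 0 in the IP arrays. With that filter and 0.25 together, a setting chosen after seeing the data, they were 4 in males, 1 in old mice, 3 pooled and 0 in the IP arrays. A member that the filter removed was not tested, so a lower count under the filter need not be a lost call. In the IP arrays the filter took the standard deviation over groups that were normalized apart. The mean signal filter gave 4 in males, 1 in old mice and 4 for MCAO minus sham, and trended robust variances gave 1 for MCAO minus sham. With MCAO arrays alone they were 0 in males and 2 in diabetic mice, and with the 2 left-out male mice 1 in males and 3 in the IP arrays. Leaving out each mouse gave 0 to 2 in males, 3 to 7 in diabetic mice, 0 to 3 in old mice, 1 to 3 for MCAO minus sham, 4 to 7 in the IP arrays, 0 to 0 in the CL arrays, 0 to 0 in sham mice and 0 to 0 between groups. The count over all genes moved by over 1.5 times more often. Against 680 genes pooled it was 2798 at 0.25, 96 with the standard deviation filter, 355 without the pairing and 277 with the left-out mice. Against 446 in diabetic mice it was 4321 at 0.25, 100 with the standard deviation filter, 1404 with the mean filter, 1439 with trended variances and 56 with MCAO arrays alone. Against 31 in males it was 92 at 0.25, 64 with the mean filter, 79 with trended variances and 20 with the left-out mice, and against 0 in old mice it was 8 at 0.25, 26 with the standard deviation filter, 6 with the mean filter and 2 with trended variances. Against 121 between diabetic and male mice it was 1823 at 0.25, 0 with the standard deviation filter, 357 with the mean filter and 23 with the left-out mice, and against 9 between diabetic and old mice 1004 at 0.25, 2 with the standard deviation filter, 17 with the mean filter, 14 with quantile normalization and 4 with the left-out mice. Against 33 for MCAO minus sham it was 250 at 0.25 and 78 with the mean filter, and against 226 in the IP arrays 990 at 0.25, 125 with the standard deviation filter and 58 with the left-out mice.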
